A study of Caenorhabditis remanei with 48 samples.

Results

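Of 24723 gene models counted in larvae of the nematode *Caenorhabditis remanei*, 32 were chosen because their level was lower at 30 than at 20 °C in each of 3 populations whose parents had lived at 20 °C. The level was the mean over the libraries of a group of log2(CPM + 1), where CPM is counts scaled to library size and by factors from the trimmed mean of M values (TMM), and the difference, larvae at 30 minus larvae at 20 °C, had to be −1.5 or lower in every population. By population, that threshold was met by 112 gene models (ancestor), 110 (control-selected) and 105 (heat-selected), which is 0.453, 0.445 and 0.425% of all models, and by 0.129% in all 3. Since the libraries of unheated parents chose the genes, their values in those libraries are given as a description without a test. The libraries of heated parents took no part in the choice, and the tests were made there.

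The samples were pooled whole L1 larvae of strain PX443, called the ancestor, and of its descendants, named control-selected and heat-selected. Parents were raised at 20 or 30 °C, and their embryos, freed by bleaching, were kept for 20 h at 20 or 30 °C in buffer without food before passing a 20-micron filter. About 100000 larvae went into each replicate, from which polyadenylated RNA was sequenced. Every population had 6 libraries per larval temperature from parents at 20 °C (unheated parents) and 2 per larval temperature from parents at 30 °C (heated parents), 48 libraries in all. All 3 populations stem from a single strain, the larvae of every group were unfed, and neither the protocol of selection nor whether replicates were separate cultures is given in the sources used here.

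*Caenorhabditis remanei* has males and females and is an outcrossing relative of *C. elegans*. Nematode larvae that hatch without food halt development in the L1 stage until food arrives. In *C. elegans* and other animals, heat activates the transcription factor HSF-1, which raises chaperone genes, while the transcripts of many other genes decline. The identifiers of the 32 genes are paired here with locus tags at most and not with names or functions, so no role is given to any of them. Since the RNA came from whole larvae, fewer cells of a type and less RNA per cell cannot be told apart.

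Gene models received 1986767 to 12717722 counts per library, and the same range covered the 12 libraries of heated parents. TMM factors ran from 0.7 to 1.53, and 9.77 to 37.5% of reads were not aligned. Between larvae at 20 and 30 °C these measures overlapped where there were 6 libraries per group. In the ancestor, for instance, the factors were 0.709 to 1.33 and 0.7 to 1.29, and reads not aligned were 12.9 to 35% and 11.3 to 37.5%. By the labels, each population had its own pair of batches (ancestor: A, B; control-selected: C, D; heat-selected: E, F). Libraries of heated parents all belonged to A, C and E, so that population and batch cannot be told apart among them. Between replicates of a group, the lowest chi-square per gene over 96 pairs was 2.68, so no pair of libraries agreed within sampling noise. Some libraries of 1 batch lay in closer pairs. With unheated parents at 30 °C, heat-selected replicates 3 and 4 had 3.32 and replicates 5 and 6 had 5.51, against 62.5 to 67.5 across these pairs. The same control-selected pairs had 3.71 and 4.95, against 26.6 to 29.2 across them. The 6 libraries of a group may therefore not be 6 independent samples.

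Among the 32 genes, 28 carry a numbered CRE identifier and 4 do not, 13 lie on numbered linkage groups and 19 on unplaced scaffolds of the deposited models, of which 48.5% lie on linkage groups. Linkage group 4 held 5 of them and linkage group 2 held 4. All 32 passed the filter on low counts, both over the 48 libraries (13460 genes kept) and over the 12 of heated parents (12505 genes). In larvae at 20 °C with unheated parents their mean level ran from 5.13 to 5526 CPM with a median of 26.9. At this temperature 9 genes were at 100 CPM or more and 2 were under 10. Because CPM is not corrected for transcript length, the order of levels between genes is not read further.

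Within the unheated groups the fall had a similar middle value in every population. The median difference over the 32 genes was −2.18 in the ancestor (range −3.97 to −1.502), −1.996 in the control-selected (−5.02 to −1.52) and −2.001 in the heat-selected population (−3.59 to −1.51). All 6 libraries at 30 °C lay below all 6 at 20 °C for 24, 31 and 25 of the 32 genes, and for 20 in all 3 populations, where 2.21, 2.73, 1.65 and 0.433% of all gene models did so. The ancestor had the largest difference in 15 genes, the control-selected population in 10 and the heat-selected population in 7. Summed over the 32 genes, the mean per library fell from 12040 to 3374 CPM in the ancestor, from 10060 to 3084 CPM in the control-selected and from 6337 to 1970 CPM in the heat-selected population; most of each sum came from CRE27021.

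**Figure D1:**
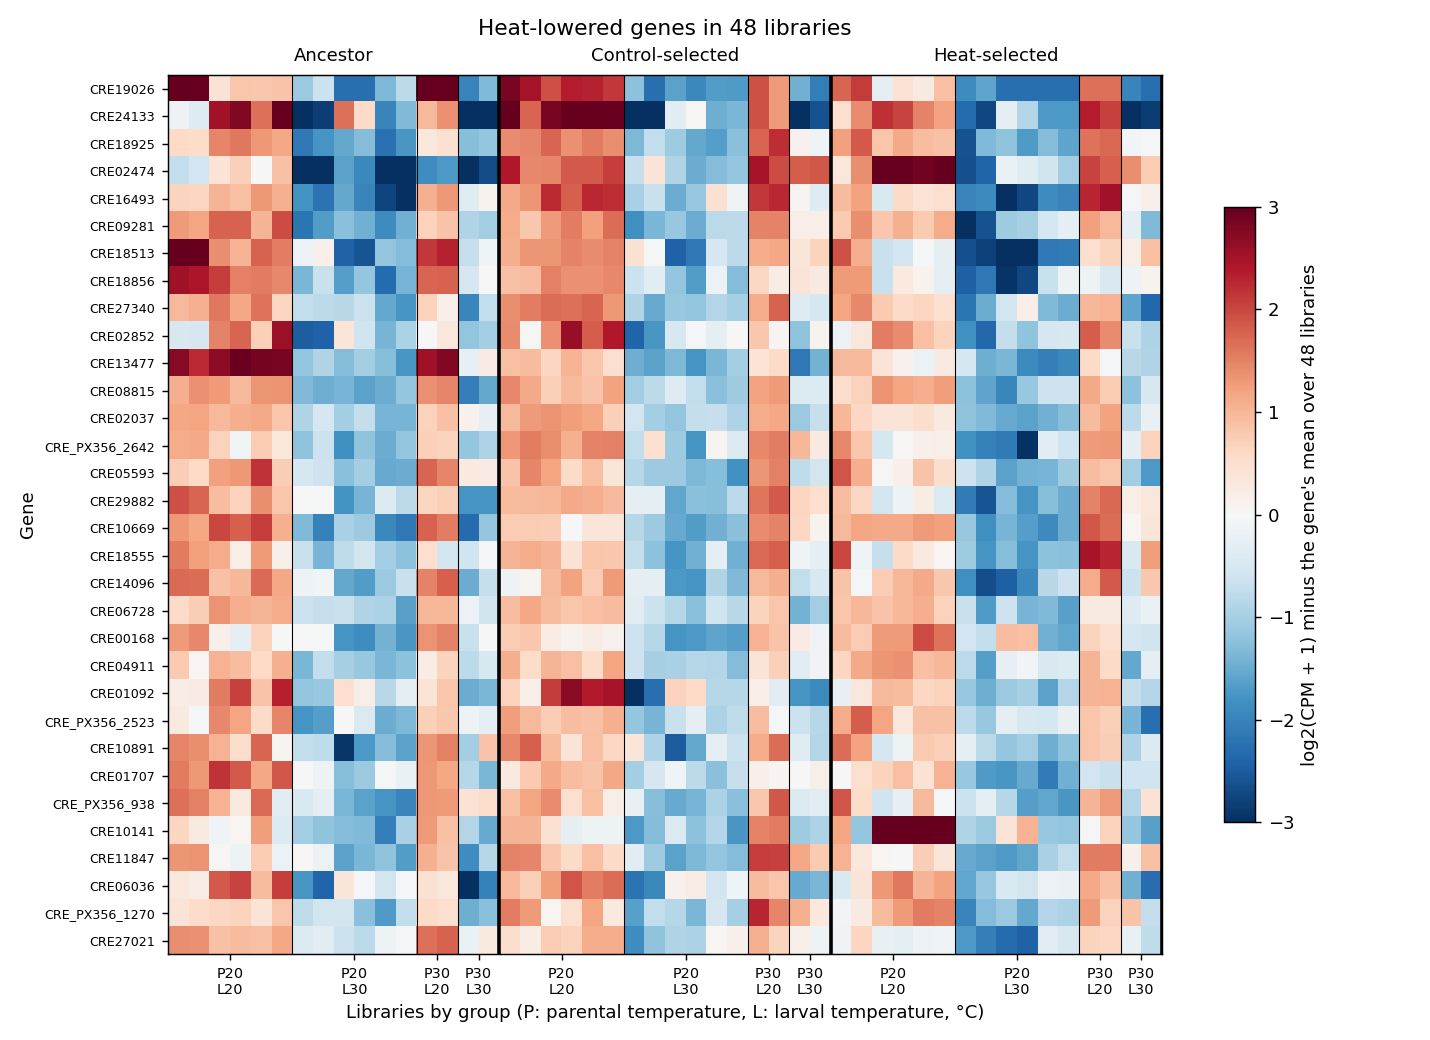
Level of the 32 genes in every library, as log2(CPM + 1) minus the gene's mean over the 48 libraries, with red above and blue below that mean and the colour scale ending at −3 and 3. Columns are libraries in order of replicate number within each group (P20 and P30: parental temperature; L20 and L30: larval temperature, in °C) and genes are ordered by their weakest difference over the 3 populations with unheated parents, from CRE19026 at −2.95 to CRE27021 at −1.502.

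Batches moved with the level of several of these genes. Taken by batch, the median difference was −2.20, −2.06 and −2.24 in batches A, C and E and −2.08, −2.10 and −1.85 in B, D and F. The threshold of −1.5 was met by 28, 27 and 29 genes in A, C and E, by 28, 29 and 22 in B, D and F, and by 13 in all 6 batches. No gene reversed within a batch: the highest difference in any of the 6 was −0.24, for CRE14096 in batch C. In the ancestor the batches were unevenly spread over larval temperature, with 2 of 6 libraries at 20 °C but 4 of 6 at 30 °C labelled A. Ancestor replicates 5 and 6 at 30 °C, labelled A, had chi-squares per gene of 98.2 to 145 against replicates 1 and 2 of A. Against replicates 3 and 4 of batch B these were 19.9 to 39.3. Whether the label of replicates 5 and 6 is right was not tested, and the ancestor values by batch rest on it.

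Over all libraries of unheated parents, CRE19026 (−2.95) and CRE24133 (−2.88) had the lowest weakest difference. With equal weight for the 2 batches of a population CRE19026 (−3.12) remained lowest, while CRE24133 (−1.81, in the ancestor) came 16th of the 32. The latter place takes the batch labels of the ancestor as given. CRE19026 was at 5.47 to 51.9 CPM (median 7.60) in ancestor larvae at 20 °C and at 0 to 2.09 CPM (median 1.06) at 30 °C. In the control-selected population it was at 17.4 to 33.9 CPM (median 23.4) against 0 to 1.05 CPM (median 0.492), and in the heat-selected at 2.94 to 19.7 CPM (median 6.76) against 0 to 0.609 CPM (median 0). The groups did not overlap in any population. The spread at 20 °C followed the batches: replicates 1 and 2 of the ancestor, in batch A, were at 51.9 and 44.8 CPM, while the 4 of batch B stayed between 5.47 and 7.70 CPM. By batch the difference for CRE19026 was −4.32 and −2.99 in A and B, −4.42 and −3.91 in C and D, and −3.65 and −2.60 in E and F.

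CRE24133 varied more. In ancestor larvae it was at 25.99 to 403 CPM (median 154) at 20 °C and at 2.17 to 110 CPM (median 10.5) at 30 °C, so that these groups overlapped. Control-selected larvae had 116 to 618 CPM (median 336) against 1.13 to 35.2 CPM (median 12.2), and heat-selected larvae 48.5 to 160 CPM (median 95.1) against 4.26 to 28.3 CPM (median 9.64), with no overlap in either. Its difference was −2.13 and −1.499 in batches A and B of the ancestor, so that the value over both, −2.88, lay below either, and −6.38 and −4.34 in C and D. In batch A the ancestor groups were apart, at 25.99 and 30.5 CPM against 2.17 to 13.0 CPM. Those of batch B were higher and overlapped by a small margin, at 109 to 403 CPM against 51.4 and 110 CPM.

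The next genes in this order lay between −2.76 and −2.14 in their weakest population. CRE18925 was the steadiest of them: 49.1 to 101 CPM (median 78.9) fell to 6.20 to 12.8 CPM (median 9.07) in the ancestor, 86.3 to 114 CPM (median 91.3) to 9.80 to 19.5 CPM (median 12.8) in the control-selected and 59.9 to 121 CPM (median 68.8) to 4.54 to 13.7 CPM (median 11.4) in the heat-selected population, with differences of −2.90, −2.76 and −2.77. CRE02474 stood at a different level in each population at 20 °C, with medians of 49.7, 155 and 350 CPM in the ancestor, control-selected and heat-selected larvae, and was at 2.74, 20.3 and 24.1 CPM at 30 °C. For CRE16493 the medians were 35.3, 74.8 and 25.9 CPM at 20 °C and 3.34, 9.53 and 3.69 CPM at 30 °C. CRE09281 had medians of 216, 177 and 143 CPM at 20 °C and 24.5, 30.5 and 35.5 CPM at 30 °C. None of these 4 genes had overlapping groups in any population.

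By level at 20 °C with unheated parents, the 5 highest genes were CRE27021, CRE18513, CRE02852, CRE00168 and CRE24133. CRE27021, the highest, was also the gene nearest to the threshold. It was at 6267 to 8863 CPM (median 7081) in ancestor larvae at 20 °C and at 1938 to 3337 CPM (median 2631) at 30 °C. The control-selected values were 3981 to 7374 CPM (median 5629) and 934 to 3746 CPM (median 1788), and the heat-selected ones 2760 to 5302 CPM (median 3088) and 632 to 2666 CPM (median 923). No groups overlapped, and the differences were −1.502, −1.524 and −1.514. CRE02852 had medians of 773, 1077 and 603 CPM at 20 °C and 156, 268 and 181 CPM at 30 °C; its ancestor groups overlapped, at 247 to 2065 CPM against 62.3 to 448 CPM. CRE00168 had medians of 190, 163 and 342 CPM against 46.5, 45.3 and 88.3 CPM, and overlapped in the ancestor and the heat-selected population.

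Members nearest to the threshold were CRE27021, CRE_PX356_1270 and CRE06036, whose weakest differences were −1.502, −1.503 and −1.521. Just outside it lay CRE00806, CRE29896 and CRE11006, each at −1.46. CRE11006 fell from medians of 419, 452 and 315 CPM at 20 °C to 147, 127 and 90.6 CPM at 30 °C, so that this gene outside the boundary fell by nearly as much as those just inside it.

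Levels at 20 °C differed between populations by 1 or less on the log2 scale for 18 of the 32 genes. At this temperature 15 genes were highest in ancestor, 11 in control-selected and 6 in heat-selected larvae. CRE10141 had the widest spread, 2.36. It was singled out after its values were seen: heat-selected larvae at 20 °C ranged from 0.838 to 110 CPM (median 51.1), with a difference of −1.01 in batch E and −4.18 in batch F, while ancestor and control-selected larvae at 20 °C had medians of 3.67 and 3.70 CPM.

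Whether the genes were also lower at 30 °C in larvae of heated parents was asked of the 12 libraries that had no part in choosing them. In log2(CPM + 1) the median difference over the 32 genes was −1.78 in the ancestor (range −5.19 to −0.30), −1.65 in the control-selected (−4.51 to −0.04) and −1.57 in the heat-selected population (−5.28 to 0.27). The difference was below 0 for 32, 32 and 30 genes, against 56.2, 51.3 and 54.5% of the 12505 genes tested. It reached −1.5 for 22, 17 and 17 genes, against 2.15, 1.19 and 1.78% of genes tested. In all 3 populations it did so for 8 genes, against 0.352% of genes tested. The 8 were CRE19026, CRE24133, CRE18925, CRE27340, CRE08815, CRE01092, CRE10141 and CRE06036. Both libraries at 30 °C lay below both at 20 °C for 31, 29 and 28 genes and for 26 in all 3 populations, where 35.3, 28.1, 24.1 and 9.52% of tested genes did so.

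**Figure D2:**
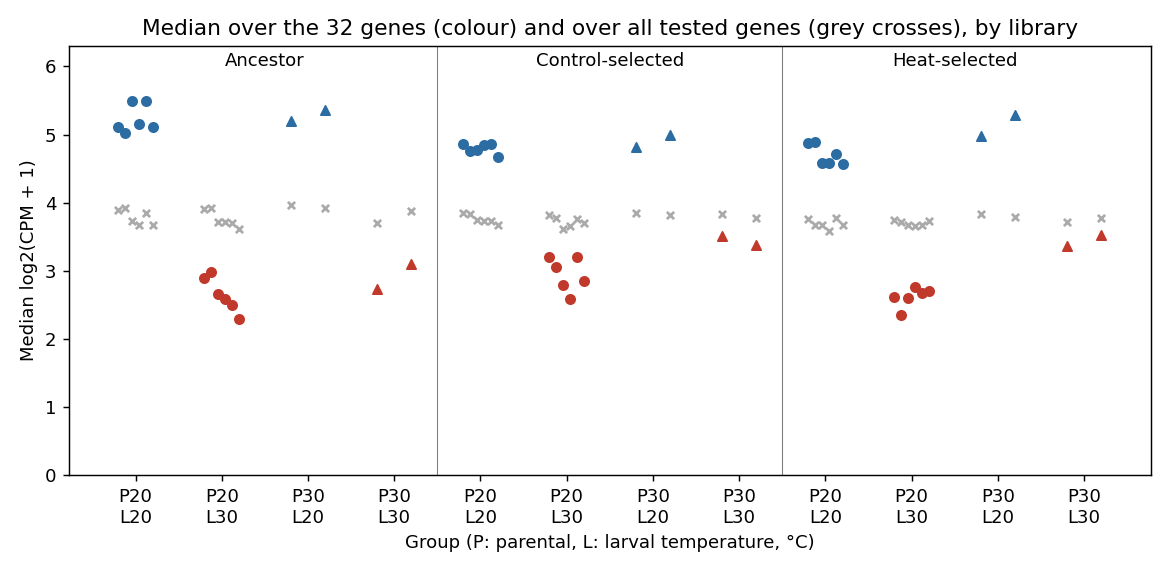
Median of log2(CPM + 1) over the 32 genes in each of the 48 libraries (blue: larvae at 20 °C, red: larvae at 30 °C; circles: unheated parents, triangles: heated parents) and over all tested genes (grey crosses). The 30 °C libraries lay below the 20 °C libraries in every population and for both kinds of parents, as in the ancestor with heated parents, at 2.74 and 3.11 against 5.20 and 5.36.

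Genes were tested with edgeR's quasi-likelihood test, where a call meant a p under 0.05 after Benjamini-Hochberg adjustment over all 12505 genes. As the mean over the 3 populations, all 32 genes were called lower at 30 °C, against 11% of genes tested, with a median log2 fold change of −1.62 (range −5.87 to −0.57; median SE 0.198) where the median over all tested genes was 0.04. With replicates summed and populations taken as replicates 29 were called, without CRE18513, CRE18856 and CRE01707 (edgeR, Benjamini-Hochberg adjusted p = 0.13, 0.26 and 0.24). By population 26 genes were called lower in ancestor, 19 in control-selected and 16 in heat-selected larvae, against 5.38, 1.82 and 1.73% of tested genes. None was called higher. At an unadjusted p under 0.05 in edgeR there were 30, 27 and 27 genes, against 27, 17 and 16% of tested genes. The control-selected count fell without replicate 2 at 20 °C or either replicate at 30 °C, where the remaining library is taken to vary like the other groups. Without single libraries the median difference over the 32 genes in log2(CPM + 1) stayed at −1.68 to −1.60 in that population. Reads not aligned moved with temperature in the control-selected libraries of heated parents, at 13.1% in both at 20 °C and 16.1 and 31.4% at 30 °C. In the ancestor they were 9.77 and 14.8% against 14.8 and 16.3%. TMM factors over all gene models moved with temperature in the ancestor (1.15 and 1.23 against 1.13 and 1.14) and the heat-selected population (1.01 and 1.08 against 1.09 and 1.42). Reads aligned outside gene models did so in the control-selected population, at 28 and 32.5% against 24.7 and 21.3%. In the other populations they overlapped, and reached 41.1% in ancestor replicate 1 at 30 °C and 47.1% in heat-selected replicate 2 at 20 °C. The part of these measures in the result was not tested. These p-values measure only the spread between the deposited libraries, which may be technical.

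CRE19026 and CRE24133 again showed the lowest values. Ancestor libraries of heated parents had 52.0 and 57.7 CPM of CRE19026 at 20 °C and 0.210 and 0.936 CPM at 30 °C. In the control-selected population it was at 17.2 and 10.6 CPM against 0.783 and 0.149 CPM, and in the heat-selected at 14.1 and 14.2 CPM against 0.212 and 0 CPM. The groups were apart in every population. As counts, CRE19026 fell from 1372 to 11, from 142 to 5 and from 131 to 1 over the 2 libraries of a group. After scaling, the level at 20 °C was 77.8 times that at 30 °C in the ancestor (exact 95% interval 43.3 to 156), 33.4 times in the control-selected (14.0 to 105) and 107 times in the heat-selected population (18.8 to 4243), where the intervals cover counting error only. The edgeR log2 fold change over the 3 populations was −5.87 ± 0.34 (SE; Benjamini-Hochberg adjusted p = 7e-08). These sizes rested on single libraries at 30 °C. The edgeR log2 fold change in the ancestor was −6.22, and −7.76 without replicate 2 at 30 °C. In the control-selected population it was −4.91, but −6.33 without replicate 1 and −4.07 without replicate 2 at 30 °C. In the heat-selected it was −6.48 and −5.89 without replicate 2 at 30 °C; without replicate 1 the remaining library had 0 counts, against which the level at 20 °C was at least 13.3-fold higher, taking 3 counts as the floor for that library. The fitted mean was −6.90 without that replicate 1. The call held in each of these cases.

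CRE24133 was at 67.5 and 89.7 CPM in ancestor larvae at 20 °C and at 1.26 and 1.12 CPM at 30 °C. The control-selected values were 131 and 84.2 CPM against 2.74 and 4.76 CPM, and the heat-selected ones 179 and 144 CPM against 2.55 and 3.89 CPM. The groups were apart in every population. The fold was 62.8, 27.1 and 49.0 in the ancestor, control-selected and heat-selected population, and the mean log2 fold change −5.45 ± 0.22 (SE; edgeR, Benjamini-Hochberg adjusted p = 7.3e-10).

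CRE06036 and CRE27340 followed these in the mean difference over the populations. CRE06036, among the genes nearest to the threshold with unheated parents, was at 65.6 and 60.5 CPM against 3.35 and 10.8 CPM in the ancestor, at 92.9 and 85.3 against 15.9 and 17.7 CPM in the control-selected and at 106 and 87.3 against 16.8 and 8.83 CPM in the heat-selected population. Its mean log2 fold change was −2.72 ± 0.21 (SE; edgeR, Benjamini-Hochberg adjusted p = 1.4e-06). CRE27340 had 13.1 and 8.98 CPM against 1.26 and 4.21 CPM in the ancestor, 17.9 and 28.5 against 5.68 and 5.06 CPM in the control-selected and 16.4 and 17.0 against 1.91 and 0.707 CPM in the heat-selected population. Its mean log2 fold change was −2.44 ± 0.27 (SE; adjusted p = 2.7e-05 in the same test). Neither gene had overlapping groups.

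The number of populations in which a gene was called lower divides the 32 as follows. In all 3 populations 11 genes were called, against 0.616% of tested genes: CRE01092, CRE05593, CRE06036, CRE08815, CRE09281, CRE16493, CRE18925, CRE19026, CRE24133, CRE27340 and CRE29882. Another 8 were called in 2 populations, against 0.84% of tested genes: CRE06728, CRE10141, CRE13477 and CRE14096 in the ancestor and the control-selected, CRE00168, CRE02852 and CRE10669 in the ancestor and the heat-selected, and CRE02037 in the control-selected and the heat-selected population. In 1 population 12 genes were called, against 5.4% of tested genes: CRE01707, CRE02474, CRE11847, CRE18513, CRE18856, CRE27021, CRE_PX356_1270 and CRE_PX356_2642 in the ancestor, CRE10891, CRE18555 and CRE_PX356_938 in the control-selected and CRE_PX356_2523 in the heat-selected population. CRE04911 was called in none, although it was lower at 30 °C in all 3 populations (log2 fold changes −1.21, −0.85 and −2.02) and in their mean (−1.36 ± 0.27, edgeR adjusted p = 0.0027). Among the 17 genes given in full, 11 had a call in a single population that ended when some library was left out or another fit was used, most often CRE02852 in the ancestor (10 of 20 alternatives, adjusted p = 0.057 to 0.25), CRE09281 in the control-selected (9 of 20, 0.05 to 0.25) and CRE00168 in the heat-selected population (8 of 20, 0.059 to 0.27). A call in one population and not in another does not show that the populations differ, which was tested separately.

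Of the genes called in all 3 populations, CRE18925 kept its call in each under all 20 alternatives tried, as did CRE19026 and CRE24133. It was at 42.2 and 45.4 CPM against 13.0 and 14.1 CPM in the ancestor, at 113 and 158 against 36.4 and 30.2 CPM in the control-selected and at 105 and 111 against 30.98 and 31.45 CPM in the heat-selected population. The log2 fold changes were −1.60 ± 0.25, −1.98 ± 0.24 and −1.71 ± 0.25 (SE; edgeR, Benjamini-Hochberg adjusted p = 0.001, 0.00062 and 0.0018). CRE16493 had 37.7 and 44.9 CPM against 13.4 and 18.99 CPM in the ancestor, 79.9 and 88.6 against 18.6 and 13.2 CPM in the control-selected and 89.2 and 105 against 16.8 and 19.8 CPM in the heat-selected population. Both genes were separated by temperature in every population. For CRE16493 the mean log2 fold change was −1.98 ± 0.15 (SE; adjusted p = 1.4e-06), and its call in the ancestor ended without replicate 2 at 20 °C (adjusted p = 0.089) or replicate 1 at 30 °C (adjusted p = 0.076).

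CRE08815 and CRE09281 were the 2 genes whose 12 group means followed the mean profile of the 32 most closely (Pearson r = 0.973 and 0.977 over 12 group means that share libraries and scaling). Both genes are part of that profile, and the rule used the groups with unheated parents, so these r are a description only. CRE08815 had 25.3 and 27.4 CPM against 1.47 and 2.53 CPM in the ancestor of heated parents, 22.5 and 24.0 against 6.65 and 6.70 CPM in the control-selected and 21.4 and 16.5 against 3.40 and 6.36 CPM in the heat-selected population, with a mean log2 fold change of −2.41 ± 0.20 (SE; edgeR, Benjamini-Hochberg adjusted p = 2.2e-06). CRE09281 had 119.4 and 134.6 CPM against 38.8 and 35.3 CPM, 208 and 210 against 84.9 and 85.1 CPM, and 173 and 145 against 60.7 and 28.6 CPM in the same order, with a mean of −1.56 ± 0.17 (adjusted p = 2e-05). Temperature separated both genes in every population. Next in likeness came CRE01378 (r = 0.972) and CRE30433 (r = 0.969), which the rule left out: their weakest differences with unheated parents were −1.02 and −0.87.

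At high level CRE27021 was at 10700 and 11510 CPM against 2967 and 4127 CPM in the ancestor of heated parents, at 7105 and 5357 against 3745 and 3059 CPM in the control-selected and at 5426 and 5244 against 2899 and 2010 CPM in the heat-selected population. Its mean log2 fold change was −1.14 ± 0.19 (SE; edgeR, Benjamini-Hochberg adjusted p = 0.00092). The groups were apart in all 3 populations. CRE02852 was at 354 and 444 CPM against 153 and 172 CPM, at 611 and 369 against 151 and 376 CPM, and at 1228 and 938 against 220 and 184 CPM, so that its control-selected groups overlapped; the mean was −1.46 ± 0.21 (adjusted p = 0.00029). For CRE00168 the values were 357 and 396 CPM against 87.4 and 139 CPM, 289 and 254 against 167 and 129 CPM, and 222 and 201 against 96.3 and 92.2 CPM, with no overlap and a mean of −1.19 ± 0.15 (adjusted p = 6e-05).

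**Figure D3:**
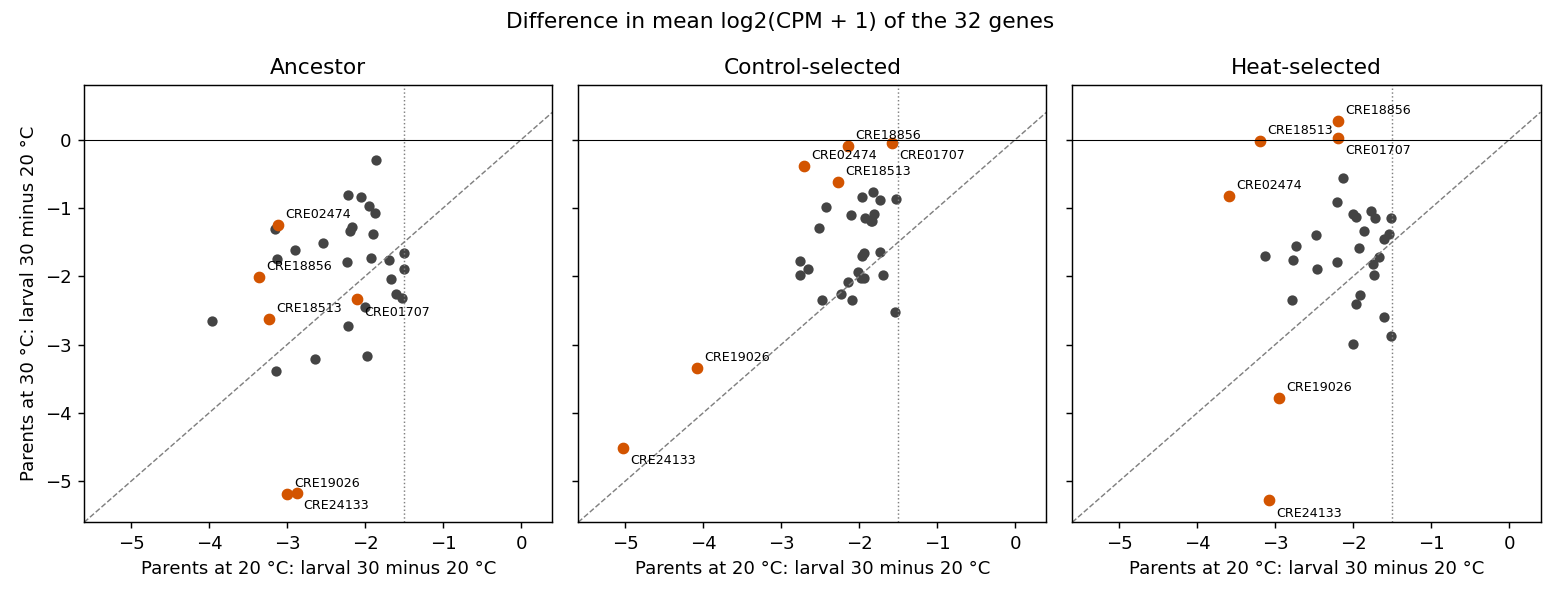
Larval difference (30 minus 20 °C, in mean log2(CPM + 1)) of each of the 32 genes with parents at 20 °C on the horizontal and at 30 °C on the vertical axis, by population. The dotted line marks the threshold of −1.5, the dashed line equal differences, and 6 genes are named and in orange: CRE19026 and CRE24133 lie lowest, and CRE18513, CRE18856 and CRE01707 lie near 0 on the vertical axis in the heat-selected population, at −0.03, 0.27 and 0.03.

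At the other end of the range, CRE18856, CRE01707, CRE02474 and CRE18513 had the smallest mean differences with heated parents. CRE18513 was at 2037 and 2316 CPM in ancestor larvae at 20 °C and at 286 and 429 CPM at 30 °C. In the control-selected population it was at 1011 and 1039 against 600 and 734 CPM, and in the heat-selected at 658 and 737 against 533 and 876 CPM, where the groups overlapped. With unheated parents its groups overlapped nowhere: 937 to 4071 CPM (median 1473) against 76.9 to 521 CPM (median 196) in the ancestor, 987 to 1305 CPM (median 1213) against 85.3 to 640 CPM (median 297) in the control-selected and 293 to 1752 CPM (median 420) against 22.5 to 108 CPM (median 69.96) in the heat-selected population. Its log2 fold changes were −2.52 ± 0.32, −0.57 ± 0.30 and 0.09 ± 0.30 in the 3 populations (SE; edgeR, Benjamini-Hochberg adjusted p = 0.00023, 0.36 and 0.92).

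CRE18856 showed a like order of populations. It was at 45.2 and 46.2 CPM against 8.80 and 12.7 CPM in the ancestor, at 20.3 and 15.1 against 17.0 and 15.6 CPM in the control-selected and at 11.5 and 9.07 against 11.5 and 13.8 CPM in the heat-selected population. Groups overlapped in both selected populations. With unheated parents the medians were 48.6, 34.9 and 15.0 CPM at 20 °C and 4.29, 6.48 and 1.82 CPM at 30 °C, and the groups overlapped in the heat-selected population, at 7.72 to 32.7 against 0.808 to 11.5 CPM. The log2 fold changes were −1.98 ± 0.27, −0.07 ± 0.27 and 0.35 ± 0.30 (SE; edgeR, Benjamini-Hochberg adjusted p = 0.00034, 0.93 and 0.61). The mean over the populations, −0.57 ± 0.16 (adjusted p = 0.021), lost its call without either ancestor replicate at 20 °C (adjusted p = 0.053 and 0.058 without replicates 1 and 2), control-selected replicate 1 at 20 °C (0.074), control-selected replicate 2 at 30 °C (0.058) or heat-selected replicate 1 at 20 °C (0.086).

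CRE01707 was at 23.8 and 21.5 CPM against 4.61 and 2.90 CPM in the ancestor, at 10.3 and 9.72 against 9.001 and 10.41 CPM in the control-selected and at 5.75 and 5.39 against 5.73 and 5.65 CPM in the heat-selected population. Both selected populations had overlapping groups, whereas with unheated parents no groups overlapped and the medians were 32.1, 17.7 and 14.0 CPM at 20 °C against 7.95, 5.09 and 2.33 CPM at 30 °C. The log2 fold changes were −2.55 ± 0.33, 0.00 ± 0.32 and 0.11 ± 0.37 (SE; edgeR, Benjamini-Hochberg adjusted p = 0.00024, 1 and 0.92). CRE02474 was lower at 30 °C in every population, with no overlap: 11.1 and 12.2 CPM against 3.14 and 5.80 CPM in the ancestor, 246 and 168 against 152 and 157 CPM in the control-selected and 177 and 149 against 115 and 72.8 CPM in the heat-selected population. For CRE02474 the difference in log2(CPM + 1) was −1.25, −0.39 and −0.82, where it had been −3.12, −2.71 and −3.59 with unheated parents, and its mean log2 fold change was −0.77 ± 0.17 (SE; edgeR, Benjamini-Hochberg adjusted p = 0.0052).

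**Figure D4:**
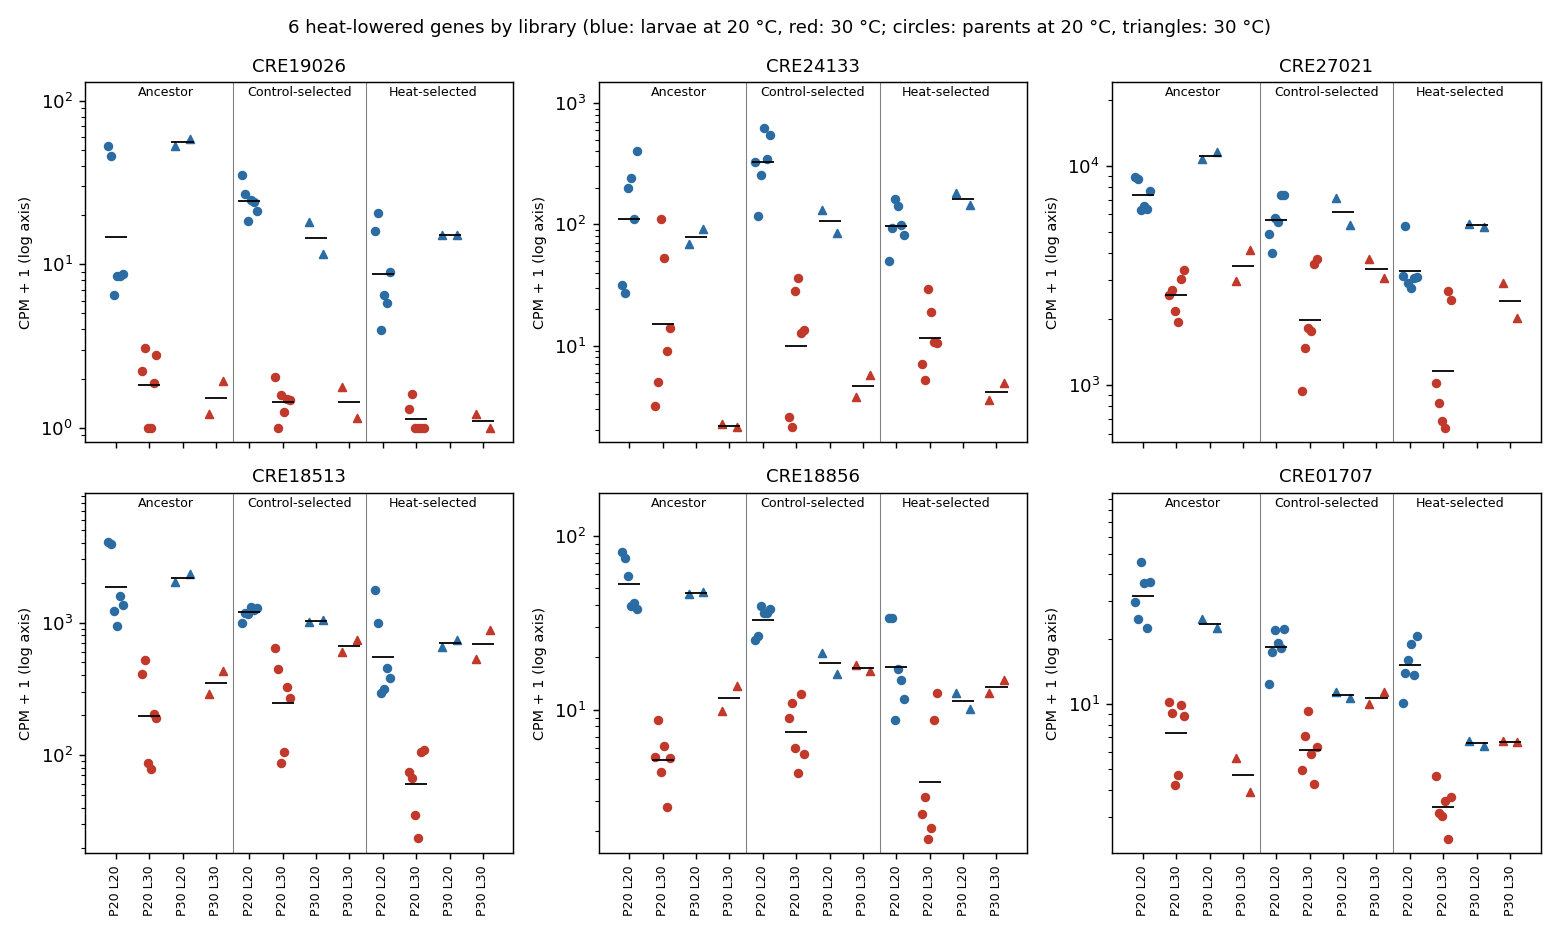
CPM + 1 of 6 of the genes in every library, on a log axis, by group (P20 and P30: parental temperature; L20 and L30: larval temperature, in °C; blue: larvae at 20 °C, red: larvae at 30 °C; circles: unheated, triangles: heated parents). Black lines are means of log2(CPM + 1). With heated parents the 2 temperatures are apart in every population for CRE19026, CRE24133 and CRE27021 and overlap in the heat-selected population for CRE18513, CRE18856 and CRE01707.

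The difference in larval effect between populations was tested as an interaction among the 12 libraries of heated parents. Control-selected minus ancestor passed for 3 genes, against 0.56% of tested genes in either direction and 0.136% in the direction of these genes, and heat-selected minus ancestor also passed for 3, against 0.608 and 0.144%. In the first, the effect was weaker in the control-selected population by a log2 difference of 2.55 ± 0.45 for CRE01707, 1.91 ± 0.38 for CRE18856 and 2.37 ± 0.48 for CRE10669 (SE; edgeR, Benjamini-Hochberg adjusted p = 0.016, 0.038 and 0.041). Leaving out ancestor replicate 1 or 2 at 30 °C moved the value of CRE10669 to 1.96 or 3.40. In the second it was weaker in the heat-selected population by 2.61 ± 0.44 for CRE18513, 2.33 ± 0.40 for CRE18856 and 2.66 ± 0.49 for CRE01707 (adjusted p = 0.0083, 0.0099 and 0.017). Both comparisons share the 4 ancestor libraries. An unadjusted p under 0.05 was found for 14 and 15 genes, against 10.5 and 9.16% of tested genes.

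Both sets of calls changed when single libraries were left out, the first set also without heat-selected ones. The log2 differences kept their sign over the 20 alternatives. For control-selected minus ancestor they were 2.11 to 2.94 for CRE01707, 1.71 to 2.13 for CRE18856 and 1.96 to 3.40 for CRE10669. For heat-selected minus ancestor they were 2.20 to 2.92 for CRE18513, 2.15 to 2.56 for CRE18856 and 2.23 to 3.03 for CRE01707. Control-selected minus ancestor kept no gene without ancestor replicate 1 or 2 at 20 °C or without any of the 4 control-selected libraries. It kept 1 without ancestor replicate 1 at 30 °C or either heat-selected replicate at 20 °C, and had 6 without either heat-selected replicate at 30 °C. Heat-selected minus ancestor kept no gene without ancestor replicate 2 or either heat-selected replicate at 20 °C, kept 1 without ancestor replicate 1 at 20 °C, and had none in the fit of all 48 libraries with batch. Between the heat-selected and the control-selected population no gene was called by edgeR (0% of tested genes), DESeq2 or limma-voom, and 4 genes had an unadjusted p under 0.05 in edgeR, against 4.06% of tested genes.

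CRE10669 passed for control-selected minus ancestor and missed the threshold for heat-selected minus ancestor (1.89 ± 0.49, edgeR adjusted p = 0.14), while CRE18513 missed it for control-selected minus ancestor (1.95 ± 0.43, adjusted p = 0.06). CRE10669 was at 40.6 and 34.3 CPM against 1.47 and 4.49 CPM in the ancestor, at 31.5 and 33.3 against 17.8 and 12.2 CPM in the control-selected and at 43.2 and 38.3 against 11.7 and 14.8 CPM in the heat-selected population. At 20 °C its levels lay within 31.5 and 43.2 CPM in all 6 libraries, whereas at 30 °C the ancestor libraries were the lowest. CRE_PX356_1270, with 5.00 and 4.46 against 0.419 and 0.655 CPM in the ancestor, 18.3 and 9.94 against 7.24 and 3.87 CPM in the control-selected and 8.54 and 5.39 against 6.15 and 1.41 CPM in the heat-selected population, overlapped in the last only. Its mean log2 fold change was −1.65 ± 0.32 (SE; edgeR, Benjamini-Hochberg adjusted p = 0.0027).

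The other 15 genes were all lower at 30 °C in the mean over the populations, with log2 fold changes from −3.03 ± 0.33 for CRE10141 to −1.26 ± 0.23 for CRE_PX356_938 (SE; edgeR, Benjamini-Hochberg adjusted p = 2.2e-05 and 0.0013). Chosen after their values were seen, CRE18555 and CRE13477 show how these genes varied. CRE18555 had overlapping ancestor groups, at 3.82 and 1.30 CPM against 1.26 and 2.25 CPM, but was at 9.96 and 10.8 against 2.15 and 1.79 CPM in the control-selected and at 17.8 and 15.6 against 1.49 and 7.07 CPM in the heat-selected population. CRE13477 stood higher in the ancestor at 20 °C than elsewhere, at 44.3 and 53.1 CPM against 9.41 and 10.6 CPM in the control-selected and 10.6 and 6.52 CPM in the heat-selected population, and was at 5.66 and 8.23, at 0.783 and 1.93 and at 3.40 and 3.18 CPM at 30 °C. Its groups did not overlap in any population. None of the others had overlapping groups in any population of heated parents.

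Relative to unheated parents, the fall was smaller with heated parents in 18 genes of the ancestor, 26 of the control-selected and 22 of the heat-selected population, with median changes of the difference of 0.47, 0.69 and 0.48. This has no test, since the libraries of unheated parents chose the genes by their low differences. The levels differed mainly in larvae at 30 °C, where the median over the 32 genes was 0.33, 0.68 and 0.89 higher on the log2(CPM + 1) scale with heated parents, and 19, 25 and 23 genes were higher. In larvae at 20 °C the median changed by −0.05, 0.16 and 0.26. Against the unheated libraries of batches A, C and E alone, to which all libraries of heated parents belong, the medians at 30 °C were 0.37, 0.76 and 0.85, and those at 20 °C were 0.04, 0.06 and 0.21. Over all tested genes the corresponding medians lay between −0.02 and 0.08, but those genes were not chosen by the rule. Choosing genes by low differences favours low levels at 30 °C with unheated parents, so these changes of level have no test either.

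In the gene order of another strain, PX506, to whose locus tags 25 of the 32 genes could be matched, 2 pairs of them were direct neighbours and lay on the same scaffold of the deposited models. CRE18856 and CRE18513 (scaffold 208) were at mean levels of 19.9 and 823 CPM over the 48 libraries, and both passed the test of heat-selected minus ancestor with heated parents. CRE27021 and CRE27340 (scaffold 33) were at 4190 and 11.2 CPM, with differences in the heat-selected population of heated parents of −1.14 and −2.99. The nearest matched genes outside each pair, CRE18512 and CRE27023, were not among the 32 and were at 0.507 and 0.6 CPM. Whether reads of one neighbour were counted for the other was not tested, and the strandedness of the counting is not given in the sources used here.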

How the data were processed

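Polyadenylated RNA of pooled L1 larvae was sequenced in 48 libraries. The authors deposited whole-number read counts per gene model, 1 file per library, aligned, per the submitters' processing notes, with GSNAP version 2013-03-31 and counted with HTSeq. Genome build and strandedness are not given in the sources used here, and identifiers name strain PX356. The 5 closing HTSeq categories stayed out of library sizes and tests; reads assigned to genes made up 31.3 to 72.8% of a library.

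CPM were computed with TMM factors over all gene models and levels as log2(CPM + 1). Tests used edgeR 4.0.16 (R 4.3.3): quasi-likelihood fit of the 12 libraries of heated parents in 6 groups, filterByExpr at a minimum count of 10, Benjamini-Hochberg adjustment over 12505 genes, threshold 0.05. SE is the log2 fold change divided by the root of the F statistic. DESeq2 1.42.0 and limma 3.58.1 (voom) were alternatives, with other scalings, filters, pseudocounts, batches and omission of each library.

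The genes, lists and tests were chosen with earlier results of these data known. Named were the 8 genes of lowest weakest difference, the 5 of highest CPM at 20 °C, the 3 nearest to the threshold on either side, the 4 lowest and 4 highest with heated parents, up to 4 differing between populations and the 4 nearest to the mean profile. Lists by gene function, sequences and cell type markers were not analysed here, since the reference pairs identifiers with locus tags only (15243 gene models matched), of another assembly than the deposited models.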

Additional observations from a re-analysis of the deposited data

Results flagged for a closer look

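Among 192 groups of 6 libraries with unheated parents (32 genes in 6 groups), 5 held a library far from the other 5 by Dixon's criterion, which chance meets in about 1 of 20 groups. CRE18925 was at 4.54 CPM in heat-selected replicate 1 at 30 °C, where the others had 9.42 to 13.7 CPM. CRE14096 was at 10.9 CPM in heat-selected replicate 2 at 20 °C, where the others had 19.5 to 25.8 CPM. CRE06728 was at 2.91 CPM in ancestor replicate 6 at 30 °C against 5.31 to 6.70 CPM, and CRE10141 at 0 CPM in ancestor replicate 5 at 30 °C against 0.65 to 1.12 CPM. The high library was heat-selected replicate 2 at 20 °C for CRE27021, with 5300 CPM against 2760 to 3150 CPM.

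Effects of larval temperature that differed between populations with heated parents, by edgeR's interaction test with Benjamini-Hochberg adjustment, were those of CRE18856 (log2 difference 1.91, adjusted p = 0.038), CRE10669 (2.37, 0.041) and CRE01707 (2.55, 0.016) for control-selected minus ancestor. For heat-selected minus ancestor they were those of CRE18513 (2.61, 0.0083), CRE18856 (2.33, 0.0099) and CRE01707 (2.66, 0.017). Over the alternatives the first 3 lost their call in 10, 9 and 6 of 20 cases, with adjusted p up to 0.46, 0.18 and 0.12. The last 3 lost it in 4, 5 and 5 of 20, with adjusted p up to 0.26, 0.37 and 0.11.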

How the results depend on the processing

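The rule gave 49 genes at a pseudocount of 0.5 (all 32 among them), 142 at a threshold of −1, 8 at −2 and 20 from the batches B, D and F (18 of the 32), but 22 to 41 under the other 45 alternatives (28 to 34 without single libraries); batches A, C and E gave 37, of which 22 were among the 32. The count called lower in the mean was 29 to 32 under 21 alternatives. Summing replicates and using populations as replicates gave 29, without CRE18513 (adjusted p = 0.13), CRE18856 (0.26) and CRE01707 (0.24), and all 48 libraries with batch gave 31, without CRE18856 (0.25). Without single libraries the counts were 19 to 29 in the ancestor, 8 to 24 in the control-selected and 11 to 21 in the heat-selected population, 0 to 6 for control-selected minus ancestor and 0 to 4 for heat-selected minus ancestor. Without a filter the former was 5, and with all 48 libraries and batch the latter was 0. The median difference with heated parents was −2.04 to −1.69 in the ancestor, −1.68 to −1.60 in the control-selected and −1.73 to −1.35 in the heat-selected population without single libraries. Scaling to total counts gave −1.73 in control-selected and −1.33 in heat-selected larvae, where it moved the median of all tested genes from −0.02 to −0.08 and from −0.06 to 0.17. Pseudocounts of 0.5 and 2 gave −1.72 and −1.54 in the control-selected population.

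Values that changed sign were near 0 and uncalled. CRE01707 in the control-selected population was −0.0152 with DESeq2's size factors, −0.00476 at a minimum count of 50, −0.0151 in DESeq2, −0.000739 with all 48 libraries and batch, −0.000308 with the replicate block and −0.11 to 0.11 without single libraries. Without single libraries CRE18856 in that population was −0.28 to 0.14, and CRE18513 in the heat-selected −0.33 to 0.39. The labels do not say whether replicate numbers pair the libraries. The correlation of deviations at the same number was weak (−0.101, −0.102 and 0.166), and so few libraries cannot decide it. The replicate block is therefore only an alternative. In it 27, 19, 21 and 32 genes were called in the ancestor, control-selected, heat-selected population and mean. With numbers crossed in the ancestor and the control-selected population, chosen after seeing the data, 27, 21, 20 and 32 were called. Also added then were equal weight for batches (32 genes, 28 shared) and omission of ancestor replicates 5 and 6 at 30 °C (30 genes, 29 shared). The cause of these changes was not tested. With 2 libraries per group and 1986767 counts in the shallowest, levels under 1 CPM rest on few counts.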
